A study of Arabidopsis thaliana with 8 samples.

Results

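The plastid sigma factor genes SIG1 to SIG6 are nuclear genes, taken here by locus: SIG1 (AT1G64860), SIG2 (AT1G08540), SIG3 (AT3G53920), SIG4 (AT5G13730), SIG5 (AT5G24120) and SIG6 (AT2G36990). These 6 loci are among 27416 in the deposited tables, which hold 1 transcript model per locus, and all 6 had enough reads to be tested. Their transcripts were measured by RNA sequencing of whole Arabidopsis thaliana seedlings of ecotype Col-0, in 4 groups of 2 libraries. All seeds stood on Murashige and Skoog medium with 1% sucrose, first at 4 °C for 3 days, and after 12 h of white light the seedlings grew in darkness for 5 days. WT dark is wild type taken from darkness. WT red is wild type after red light (50 µmol per second and square metre) for 1 h, and phyB red and phyAB red are seedlings labelled phyB and phyAB after the same light. The sources used here do not name the alleles of the mutants. No library of mutants kept dark was analysed here, so a difference between a mutant and wild type in red light can have been present before the light.

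Chloroplast genes are transcribed largely by a bacterial-type RNA polymerase, the plastid-encoded polymerase or PEP. The plastid genome encodes its core subunits, whereas the sigma factors that let the core recognise promoters are made in the cytosol from nuclear genes and imported. The plastid also uses a phage-type polymerase encoded in the nucleus. During greening of dark-grown seedlings PEP becomes the main transcriber of photosynthesis genes, with the help of nuclear-encoded associated proteins. In Arabidopsis SIG2 and SIG6 are needed for normal greening of cotyledons, SIG3 and SIG4 serve narrow sets of plastid promoters, SIG1 takes part in balancing photosystem gene transcription, and SIG5 responds to light and stress and drives the light-responsive promoter of psbD.

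Library totals ran from 15926547 to 22116924 reads. Levels are given as CPM, counts scaled to a common library size, after TMM scaling of the library totals. PHYA, the gene of phytochrome A, had 123 and 124 CPM in the phyAB libraries and at least 463 CPM in every other library, and PHYB had 50.4 to 64.3 CPM in the libraries of both mutants against 80.7 to 96.0 CPM in wild type. Transcripts of the mutated genes were lower but present, so they check the genotype labels only in part. Markers of shoot mesophyll, epidermis, vascular tissue and root all had reads in every library. The summed level of the 3 mesophyll markers was 555 to 561 CPM in WT dark, 1663 to 1674 in WT red, 1868 to 1879 in phyB red and 939 to 940 in phyAB red. Most of it came from RBCS1A, with means of 540, 1386, 1527 and 798 CPM in these groups. In the same order the 2 epidermis markers summed to 304 and 309, 494 and 509, 591 and 590, and 449 and 437 CPM. The 2 vascular markers summed to 92.5 and 92.1, 109 and 105, 92.6 and 91.2, and 78.7 and 77.3 CPM. The summed level of the 3 root markers was 13698 to 13702, 18278 to 18286, 11116 to 11165 and 15787 to 15907 CPM, nearly all from the ER-body gene BGLU23. The other root markers did not follow this sum. In the same order of groups, the means of SCR were 49.8, 50.1, 46.9 and 50.9 CPM and those of COBL9 4.28, 3.12, 3.28 and 4.56 CPM. The 3 seed markers summed to 24.2 and 25.6 CPM in phyAB red and to at most 1.23 CPM elsewhere, with the albumin gene SESA3 at 0 reads outside phyAB red. The part of these shifts in the results was not tested. In whole seedlings, fewer cells of a type and less RNA per cell cannot be told apart.

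The sigma factor genes lie apart from each other on 4 chromosomes. In the RefSeq annotation of assembly TAIR10.1, SIG1 spans chr1:24097736-24100970 and SIG2 chr1:2703295-2706860, both on the plus strand. SIG6 spans chr2:15537225-15540139, SIG3 chr3:19960789-19963980, SIG4 chr5:4429095-4430901 and SIG5 chr5:8157151-8160343, all on the minus strand. The deposited models were 1375 bases long for SIG4 and 1904 to 2017 bases for the others. SIG4 shares 201 annotated bases with AT5G13720 on the opposite strand, and since no source used here states whether counting used the strand, reads of these neighbours cannot be told apart there. AT5G13720 itself had 5.06 and 4.89 CPM in the dark, against 7.15 and 5.89 for WT red, 9.66 and 8.90 for phyB red and 4.11 and 3.30 for phyAB red.

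The 300 bases before the annotated start are shown for SIG5, the gene with the widest range of levels, and for SIG4, a weaker responder, because these are the windows of the 6 in which no other gene is annotated. Both run 5′ to 3′ on the coding strand, which is the minus strand, in TAIR10.1, at chr5:8160344-8160643 for SIG5 and chr5:4430902-4431201 for SIG4. Capitals mark matches to the motifs searched.
SIG5: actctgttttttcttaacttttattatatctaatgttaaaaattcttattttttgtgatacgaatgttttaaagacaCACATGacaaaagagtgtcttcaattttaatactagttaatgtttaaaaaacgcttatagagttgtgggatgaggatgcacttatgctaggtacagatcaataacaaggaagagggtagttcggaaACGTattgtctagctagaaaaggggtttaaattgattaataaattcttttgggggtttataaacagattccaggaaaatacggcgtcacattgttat
SIG4: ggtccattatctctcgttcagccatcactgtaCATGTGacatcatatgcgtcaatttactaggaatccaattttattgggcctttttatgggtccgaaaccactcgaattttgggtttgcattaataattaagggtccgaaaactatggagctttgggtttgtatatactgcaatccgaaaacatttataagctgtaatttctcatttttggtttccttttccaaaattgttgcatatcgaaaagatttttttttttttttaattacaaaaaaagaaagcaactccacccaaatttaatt
The motifs were CACGTG (the G-box), CACATG (an E-box variant bound by PIF factors), ACGT (the core of bZIP sites such as those of HY5, and part of the G-box), GATAAG (the I-box) and AAAATATCT (the evening element), each searched on both strands. SIG5 held CACATG at −223 to −218 and ACGT at −97 to −94 from the start, and SIG4 held CACATG at −268 to −263. Among the windows not shown, that of SIG3 held 2 ACGT matches, 1 I-box and 1 evening element, and those of SIG1, SIG2 and SIG6 held none of the 5 motifs. No window of the 6 held a G-box. Over 27443 windows of the same length before protein-coding genes, 7.09% held the G-box, 13.1% CACATG, 49.0% ACGT, 14.5% the I-box and 2.79% the evening element. These are matches of letters and were not tested against expression.

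WT red was compared with WT dark to ask how wild-type seedlings respond to the hour of red light. All 6 sigma factor genes rose, against a background of 24.1% of all 20716 tested genes called higher and 22.7% called lower at an adjusted p below 0.05. The median log2 change of the 6 genes was 1.35, against 0.00 over all tested genes. SIG5 had 2.85 and 3.65 CPM in the libraries of WT dark and 50.6 and 48.4 CPM in WT red. Its dark level rested on 57 and 68 reads, and the red-lit libraries held 978 and 772. The rise was 15.3-fold (log2 change 3.93 ± 0.10 SE, adjusted p = 1.47e-70).

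SIG1, the most abundant member per length, had 22.1 and 25.2 CPM in WT dark and 74.1 and 75.9 in WT red (1.67 ± 0.06, adjusted p = 6.9e-55). SIG2 and SIG6, the pair that cotyledons need to green, moved by similar amounts. SIG2 had 21.3 and 22.1 CPM in WT dark and 52.8 and 54.2 in WT red (1.30 ± 0.07, adjusted p = 5.11e-39). SIG6 had 13.8 and 12.9 CPM in WT dark and 35.3 and 35.6 in WT red (1.41 ± 0.08, adjusted p = 1.01e-33). In each of these genes the groups stood far apart relative to the spread of the libraries.

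The narrow-range factors rose least. SIG3, which serves the psbN promoter, had 13.7 and 13.5 CPM in WT dark and 26.7 in both libraries of WT red (0.97 ± 0.09, adjusted p = 5.99e-19). SIG4, which serves the ndhF promoter, had 4.96 and 6.50 CPM in WT dark and 12.7 and 12.5 in WT red (1.15 ± 0.14, adjusted p = 6.07e-13). SIG4 was the least abundant member in red light, with 99 to 302 reads in a library over all groups, and its dark libraries differed most among its groups relative to their mean.

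**Figure D1:**
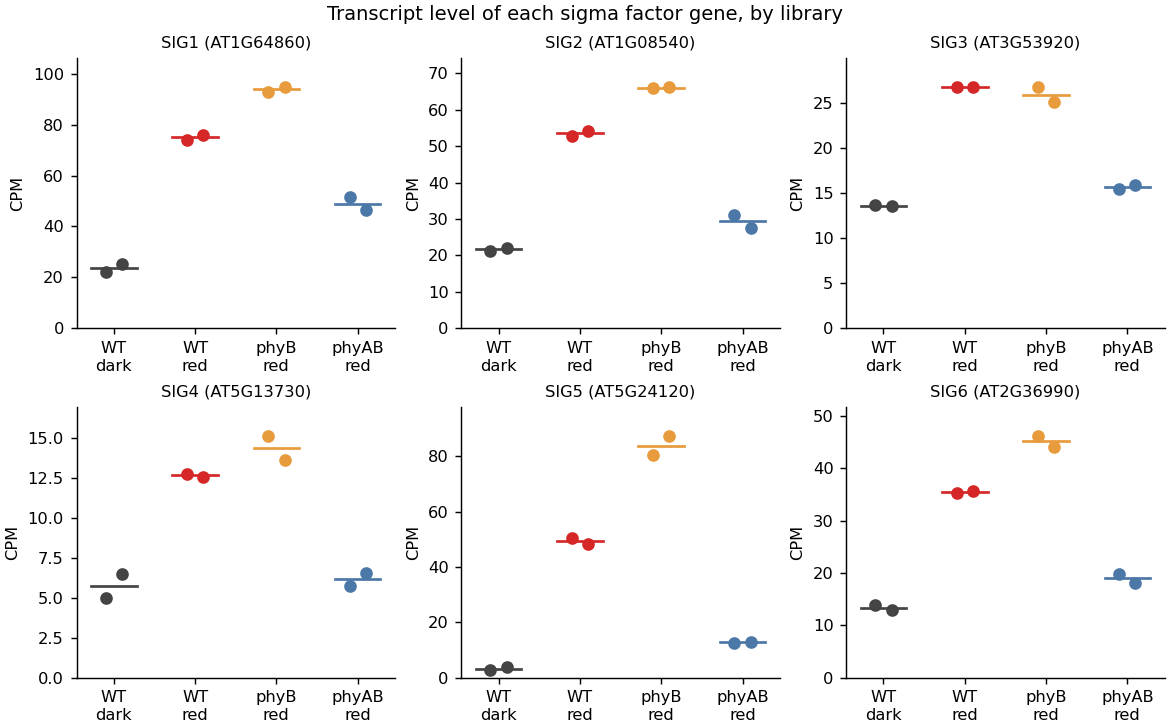
Transcript level of each sigma factor gene in CPM (y axis, linear, a scale of its own for each gene) in the 4 groups (x axis); points are the 2 libraries of a group and the line is their mean. The mean of WT dark is lowest for every gene, with SIG4 libraries of WT dark and phyAB red overlapping, and phyAB red lies below WT red for every gene, with SIG5 going from 3.25 CPM in WT dark to 83.9 in phyB red.

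In the comparison of phyB red with WT red, 4 of the 6 genes were higher in the mutant and 0 were lower, where 13.1% of all genes were called higher and 14.1% lower. SIG5 had 80.5 and 87.3 CPM in phyB red, above both libraries of WT red (log2 difference 0.76 ± 0.06, adjusted p = 1.59e-25). SIG1 had 92.9 and 94.7 CPM (0.33 ± 0.05, adjusted p = 1.99e-09), SIG2 65.9 and 66.2 (0.31 ± 0.05, adjusted p = 1.52e-06) and SIG6 46.1 and 44.1 (0.34 ± 0.07, adjusted p = 8.28e-06). For these genes, too, both libraries of the mutant lay above both of wild type, and how many of all tested genes did so was not counted. SIG3 was not called at 26.7 and 25.1 CPM in phyB red, with a difference of −0.05 and a 95% interval of −0.21 to 0.11 (adjusted p = 0.716), and its libraries overlapped those of WT red. SIG4 was not called either at 15.1 and 13.6 CPM, with a difference of 0.17 and an interval of −0.06 to 0.40 (adjusted p = 0.297). The fit found a common biological coefficient of variation of 1.59% between libraries, and nothing in the labels tells if these were independent seedling batches, so the p-values measure a spread that may be technical. With an assumed coefficient of variation of 0.1 the differences of SIG1, SIG2 and SIG6 were no longer called (adjusted p = 0.76, 0.824 and 0.733), and that of SIG5 was kept.

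In phyAB red all 6 genes were lower than in WT red, where 22.7% of all genes were called lower and 22.3% higher. SIG5 had 12.6 and 12.8 CPM in phyAB red, a difference of −1.97 ± 0.08 (adjusted p = 8.66e-51). SIG4 had 5.74 and 6.54 CPM (−1.05 ± 0.13, adjusted p = 1.67e-11), SIG6 19.9 and 18.1 (−0.89 ± 0.08, adjusted p = 9.9e-21) and SIG2 31.2 and 27.5 (−0.86 ± 0.06, adjusted p = 1.31e-25). SIG3 had 15.5 and 15.8 CPM (−0.77 ± 0.09, adjusted p = 5.51e-14) and SIG1 51.6 and 46.3 CPM (−0.61 ± 0.05, adjusted p = 6.63e-21). No library of phyAB red reached the lower library of WT red for any member. The share of all tested genes without such overlap was not counted. With library totals alone in place of TMM, 61.4% of all calls in this comparison were higher, against 49.6% here, and in phyB red 61.2% against 48.2%.

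Set against the single mutant, phyAB red was lower for all 6 genes, where 24.1% of all genes were called lower and 26.1% higher. The differences ran from −0.72 ± 0.09 for SIG3 (adjusted p = 6.47e-13) to −2.73 ± 0.07 for SIG5 (adjusted p = 1.25e-71), with a median of −1.19. SIG1 differed by −0.93 ± 0.05, SIG2 by −1.16 ± 0.06, SIG4 by −1.22 ± 0.13 and SIG6 by −1.24 ± 0.07.

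In the comparison of phyAB red with WT dark 4 of the 6 genes were called, and differences between genes were not tested. SIG1, SIG2, SIG5 and SIG6 were higher than in WT dark, where 27.2% of all genes were called higher and 20.9% lower. The differences were 1.97 ± 0.14 for SIG5 (adjusted p = 1.51e-27), 1.06 ± 0.06 for SIG1 (adjusted p = 1.32e-32), 0.52 ± 0.09 for SIG6 (adjusted p = 4.7e-07) and 0.44 ± 0.07 for SIG2 (adjusted p = 7.49e-08). SIG3 differed by 0.20 ± 0.10 (adjusted p = 0.0753, interval 0.01 to 0.39) and SIG4 by 0.10 ± 0.15 (adjusted p = 0.644, interval −0.21 to 0.40), and neither was called. Both intervals overlapped that of SIG2, 0.30 to 0.59. The call of SIG3 depended on the setting: its adjusted p was 0.0329 with library totals alone and 0.0353 with limma on log2(RPKM + 1). With an assumed coefficient of variation of 0.1 the calls of SIG2 and SIG6 were lost (adjusted p = 0.182 and 0.111). In phyB red all 6 genes were higher than in WT dark, by 0.92 ± 0.09 for SIG3 to 4.70 ± 0.09 for SIG5, where 27.5% of all genes were called higher and 27.1% lower. These comparisons share their wild-type libraries and are not independent of each other.

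**Figure D2:**
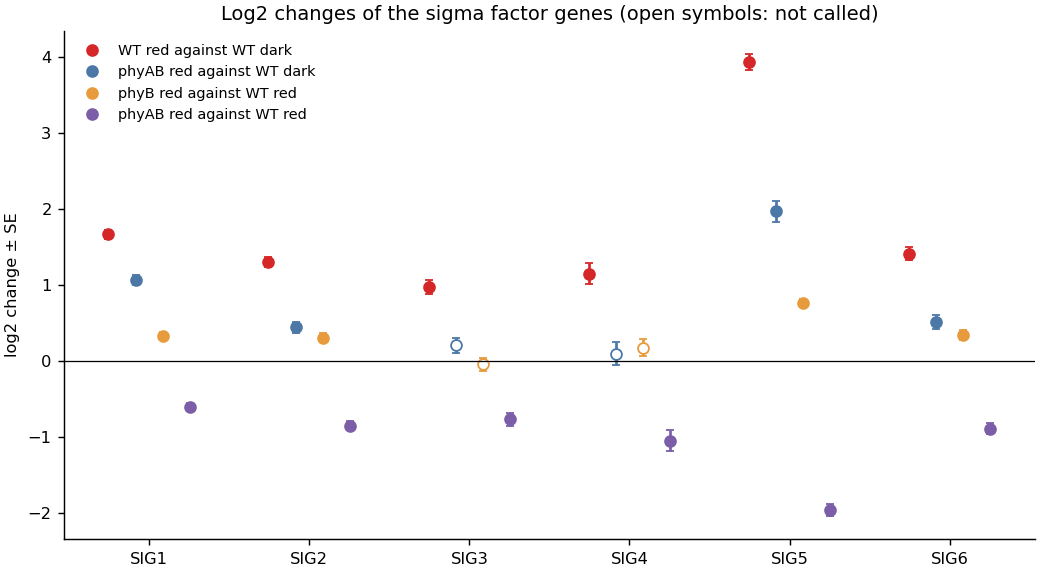
Log2 change with its SE (y axis) for the 6 sigma factor genes (x axis) in 4 comparisons, marked by colour; open symbols were not called at an adjusted p below 0.05. SIG5 has the highest value in the comparison of WT red with WT dark (3.93) and the lowest in that of phyAB red with WT red (−1.97), and the open symbols belong to SIG3 and SIG4.

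The 4 groups thus had the same order for 5 members, WT dark lowest, then phyAB red, WT red and phyB red. The share of all tested genes with this order was not counted. Among the 4993 genes called higher in WT red than in WT dark, the median positions of the mutants, given below, followed it too. For SIG1, SIG2, SIG5 and SIG6 every neighbouring pair in this order was called different. For SIG4 the neighbours WT dark and phyAB red, and WT red and phyB red, were not called different, although both libraries of phyB red lay above those of WT red. For SIG3 the same pairs were not called, with the means of WT red and phyB red at 26.7 and 25.9 CPM. Its phyAB red libraries lay above those of WT dark without overlap.

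The level of a member in a mutant was also placed on a scale where WT dark is 0% and WT red is 100%, as a description without a test. On the CPM scale phyAB red lay at 49.3% for SIG1, 25.5% for SIG6, 24.0% for SIG2, 20.4% for SIG5, 15.8% for SIG3 and 5.93% for SIG4. The libraries of phyAB red gave 54.5% and 44.1% for SIG1, while for SIG5 they gave 20.2% and 20.6%. For SIG4 they gave 0.118% and 11.7%, so its value rests on which library is read. The median over the 4993 genes called higher in WT red than in WT dark was 45.8%, with quartiles of 18.4% and 94.4%. On the log2 scale the value of SIG5 was 49.8% and that of SIG4 9.45%, with a median of 56.1% over the same genes. In phyB red SIG5 lay at 174% and SIG1, SIG2, SIG4 and SIG6 at 125% to 144%, with SIG3 at 93.9%. The median over those 4993 genes in phyB red was 105%, with quartiles of 64.6% and 136.9%. Over the 1463 of them that were higher by over 2-fold, the medians were 112.8% in phyB red and 39.2% in phyAB red. On the log2 scale SIG5 did not stand apart in phyB red, at 119.5% against 119.4% for SIG1, 123% for SIG2 and 125% for SIG6.

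**Figure D3:**
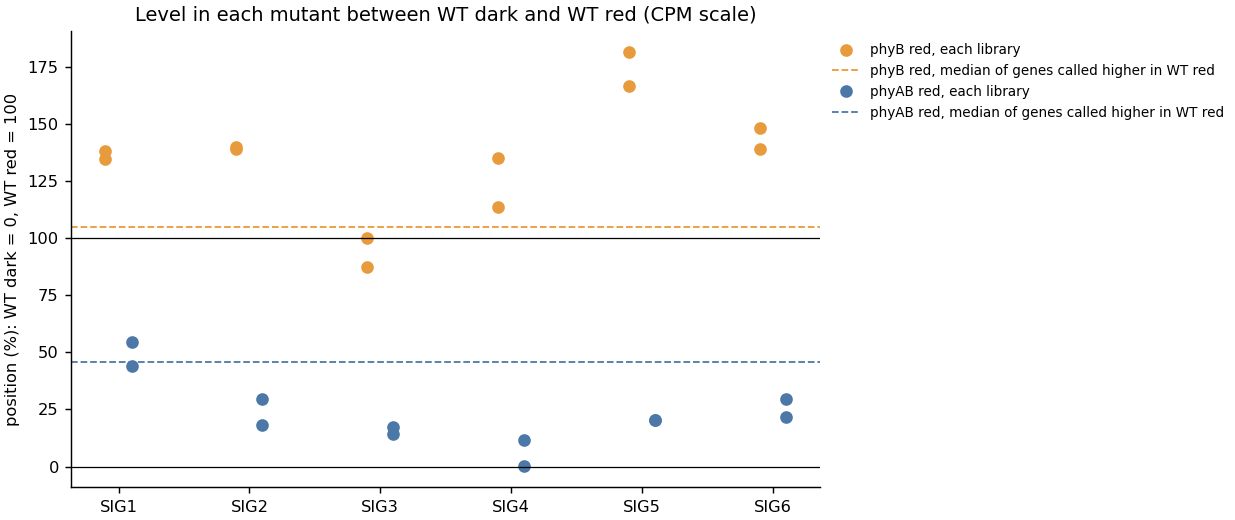
Level of each sigma factor gene in the mutants (y axis, percent of the way from WT dark to WT red on the CPM scale) for the 6 genes (x axis); points are single libraries and dashed lines are the medians of the genes called higher in WT red, 105% for phyB red and 45.8% for phyAB red. On this scale both SIG5 points of phyB red lie above those of the other genes, which the log2 scale does not show (119.5% against 125% for SIG6), and the points of phyAB red lie under its dashed line except for 1 of the SIG1 points, at 54.5%.

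Levels of different genes were compared per length, as RPKM (counts scaled by model length and library total). The summed RPKM of the 6 genes was 40.5 and 43.5 in WT dark, 127.9 and 128.3 in WT red, 171 and 173 in phyB red, and 71.7 and 67.1 in phyAB red, so it was 3.05 times the dark level in WT red, 4.09 times in phyB red and 1.65 times in phyAB red. SIG5 held 3.69% and 4.39% of this sum in WT dark, the smallest share of the 6 genes. It held 20.3% and 19.4% in WT red, and 24.9% and 26.7% in phyB red, where only SIG1 held more in both libraries. In phyAB red it held 9.42% and 10.2%. The share of SIG5 thus did not overlap between any groups.

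The shares of the other genes moved less. SIG1 held 27.6% to 29.4% of the sum in WT dark, WT red and phyB red and 35.9% and 37.4% in phyAB red, and it ranked first in every library. The share of SIG2 was 25.9% ± 0.649 in the dark (SD, n = 2), and 20.5% ± 0.316 for WT red, 19.4% ± 0.0825 for phyB red and 21.6% ± 0.877 for phyAB red. SIG6 stayed between 12.8% and 16.8% in every library. SIG3 held 16.0% ± 0.929 in WT dark and 7.53% ± 0.395 in phyB red, although its own level was higher in phyB red. SIG4 held 5.76% to 10.8%. Such shares are tied to each other and to transcript models of fixed length, and 2 libraries against 2 cannot pass an exact test, so none was made.

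**Figure D4:**
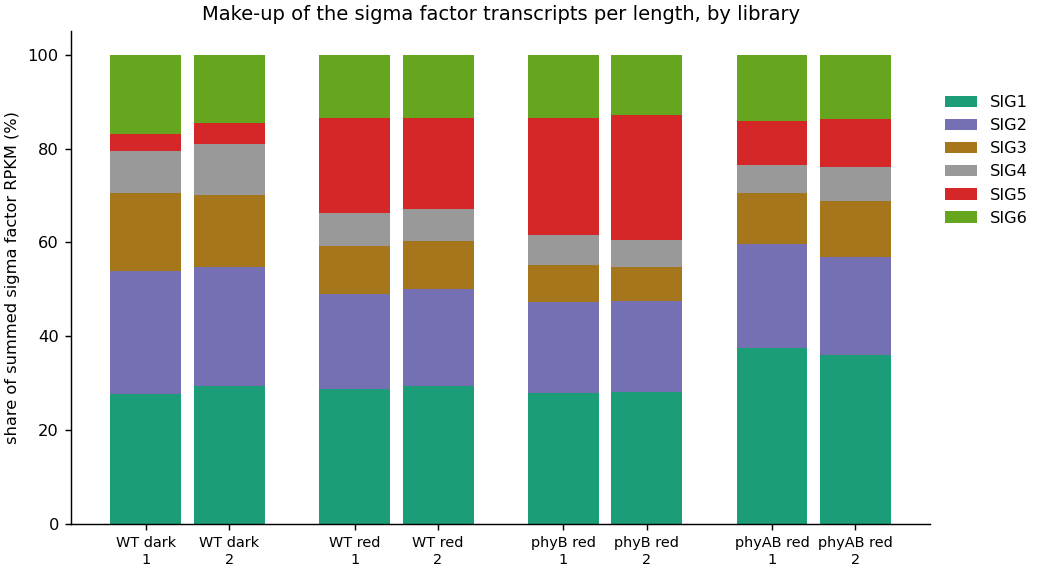
Share of the summed RPKM of the 6 sigma factor genes held by each gene (y axis, percent, stacked) in each of the 8 libraries (x axis, grouped). The SIG5 segment is 3.69% and 4.39% in WT dark, at least 19.4% in WT red and phyB red, and 9.42% and 10.2% in phyAB red.

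The genes whose pattern was most like that of a member were found by the root mean square (RMS) difference between the 4 group means of log2 CPM, each centred on its own mean, among all tested genes. For SIG5 they were AT4G27030, a fatty acid desaturase gene named FADA in the RefSeq table (RMS difference 0.127), the plastid potassium antiporter gene KEA3 (0.149) and NDA1, an alternative NADH dehydrogenase gene (0.173). KEA3 had 5.10, 66.5, 100.4 and 19.2 CPM in WT dark, WT red, phyB red and phyAB red. NDA1 stayed under 3.2 CPM. No other sigma factor gene was close to SIG5, the nearest being SIG1 at 1.06.

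For SIG1 the likest genes were AT5G57790, the light-harvesting-like gene LIL3:1 and the leaf-patterning gene BOP1 (0.0376 to 0.0418), and for SIG2 AT1G58807, the plastid antiporter gene KEA1 and AT3G13403 (0.00884 to 0.0233). AT1G58807 has a near-identical copy, so its value is uncertain. For SIG4 they were CRR1, a gene needed for the chloroplast NDH complex, the plastid protease gene ARASP and LHCB4.2 (0.00553 to 0.0401), and for SIG6 the presequence protease gene PREP1, AT1G50450 and AT1G67700 (0.0171 to 0.0263). SIG2 and SIG6 were close to each other, at an RMS difference of 0.0557, and SIG6 was the gene at place 15 in the order of likeness to SIG2. SIG3 spanned 0.968 on the log2 scale between its lowest and highest group and was left out by the minimum of 1. With 4 group means, many genes share any such pattern, and BOP1 and AT3G13403 lay at 5.24 CPM or less.

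The other genes of the plastid transcription machinery were read from lists. Of the 12 nuclear genes of PEP-associated proteins, 11 rose in WT red against WT dark and 0 fell, with a median log2 change of 0.69. Over all tested genes, 24.1% were called higher and 22.7% lower. PTAC7, a component of the transcriptionally active chromosome of plastids, rose most, by 1.46 ± 0.11, followed by the thioredoxin gene TRXZ (1.15 ± 0.15). The lowest values were those of MURE (0.51 ± 0.08) and of the superoxide dismutase gene FSD2, which was not called (−0.16 ± 0.19, adjusted p = 0.513). In phyB red 2 of the 12 were higher than in WT red and 0 lower, FSD2 (0.66 ± 0.18) and PTAC7 (0.38 ± 0.09), a share near the 13.1% called higher over all genes, and the lowest values were those of PTAC10 (−0.13 ± 0.11) and PTAC2 (0.03 ± 0.08), neither called. In phyAB red 8 were lower than in WT red and 1 higher, with a median of −0.37, where 22.7% of all genes were called lower and 22.3% higher. PTAC6 (−0.88 ± 0.07) and PTAC7 (−0.73 ± 0.10) were lowest, FSD2 was higher (1.02 ± 0.17), and FSD3 was not called (0.29 ± 0.14, adjusted p = 0.0742).

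All 3 phage-type polymerase genes rose in WT red, where 24.1% of all genes were called higher and 22.7% lower. RPOTP, the plastid enzyme, rose by 0.86 ± 0.10, RPOTMP, whose product is sent to plastids and mitochondria, by 0.33 ± 0.10, and RPOTM, the mitochondrial enzyme, by 0.27 ± 0.09. None of the 3 was called in phyB red (−0.17 ± 0.09, −0.18 ± 0.10 and 0.01 ± 0.09), and all 3 were lower in phyAB red than in WT red (−0.58 ± 0.10, −0.47 ± 0.10 and −0.49 ± 0.09). Over all genes, 13.1% were called higher and 14.1% lower in phyB red than in WT red, and 22.7% were called lower in phyAB red.

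Among 5 genes of proteins that bind or modify sigma factors, 2 rose and 2 fell in WT red, where 24.1% of all genes were called higher and 22.7% lower. CSK, the chloroplast sensor kinase that acts on SIG1, rose from 10.4 ± 0.880 to 22.1 ± 0.773 CPM (SD, n = 2). SIB1, a sigma-binding protein, rose by 2.25 ± 0.64 but was under 1 CPM in both groups, with 4 and 2 reads in WT dark and 14 and 13 in WT red. DG1, which interacts with SIG6, fell by 0.38 ± 0.08, CKA4, a plastid casein kinase subunit, fell by 0.27 ± 0.03, and SIB2 was not called (0.11 ± 0.10). None of the 5 was called in phyB red against WT red, where 13.1% of all genes were called higher and 14.1% lower. SIB1 differed by −0.95 ± 0.53 and the others by −0.15 to 0.18. In phyAB red CSK (−0.32 ± 0.09), CKA4 (−0.29 ± 0.03) and DG1 (−0.25 ± 0.08) were lower than in WT red, and SIB1 (0.68 ± 0.42) and SIB2 (0.08 ± 0.10) were not called. Over all genes, 22.7% were called lower and 22.3% higher in that comparison.

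All 11 nuclear genes of plastid ribosomal proteins rose in WT red, with a median of 0.85, where 24.1% of all genes were called higher. The highest values were those of PRPL11 (1.39 ± 0.08) and PRPL21 (1.34 ± 0.06) and the lowest those of PRPL4 (0.41 ± 0.05) and PRPL1 (0.50 ± 0.05). In phyB red 9 of the 11 were higher than in WT red, where 13.1% of all genes were called higher. They were led by PRPS1 (0.45 ± 0.04) and PRPL1 (0.36 ± 0.04), and PRPS17 (0.11 ± 0.05) and PRPL35 (0.13 ± 0.06) were not called. All 11 were lower in phyAB red than in WT red, where 22.7% of all genes were called lower. Their differences ran from −0.59 ± 0.05 for PRPS17 and −0.51 ± 0.05 for PRPL21 to −0.22 ± 0.06 for PRPL24 and −0.20 ± 0.04 for PRPL1.

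**Figure D5:**
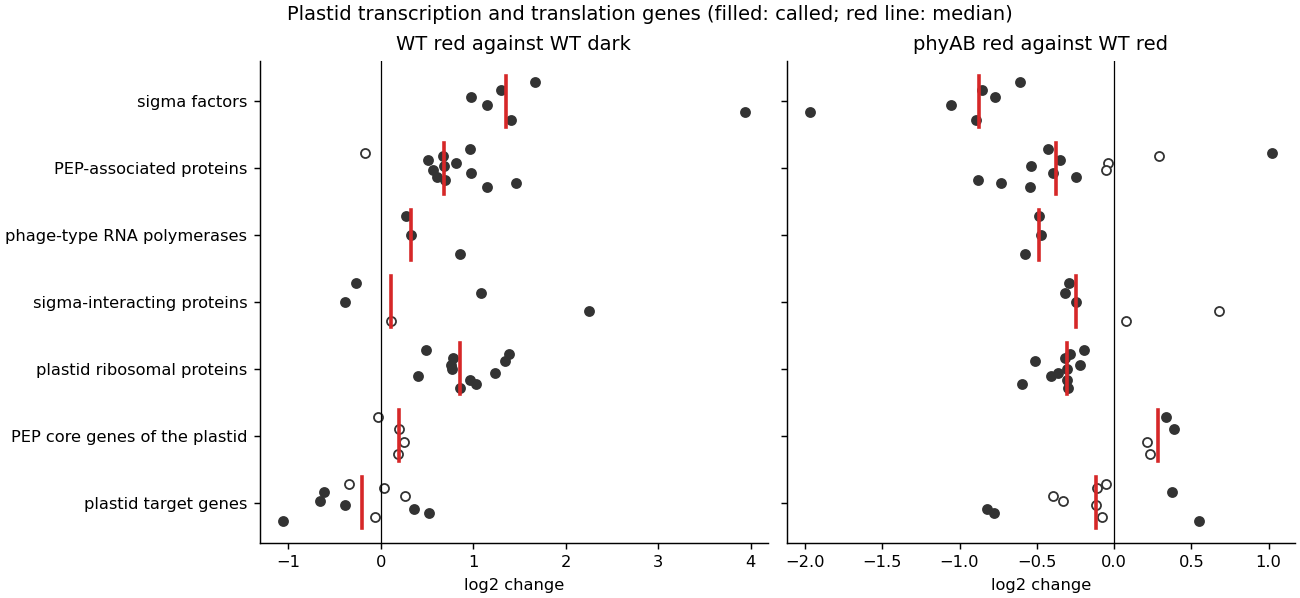
Log2 change (x axis) of each gene of 7 lists (y axis) in WT red against WT dark (left) and in phyAB red against WT red (right); filled points were called, open points were not, and the red line is the median of a list. The sigma factor medians are 1.35 and −0.88, and the plastid target genes lie on both sides of 0 in both panels.

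HY5 and HYH, bZIP factors of light signalling, of which HY5 is known to bind the SIG5 promoter, rose by 0.80 ± 0.07 and 3.40 ± 0.16 in WT red. They were higher in phyB red than in WT red (0.25 ± 0.06 and 0.35 ± 0.10) and lower in phyAB red (−1.09 ± 0.07 and −1.28 ± 0.12). Against WT dark, HY5 was lower in phyAB red (−0.30 ± 0.08, adjusted p = 0.00115), unlike SIG5, and HYH was higher (2.12 ± 0.19, adjusted p = 4.1e-20). The blue-light receptor gene CRY1 rose by 0.23 ± 0.04 in WT red, was higher in phyB red (0.14 ± 0.03) and lower in phyAB red (−0.42 ± 0.04). CRY2 moved by −0.01 ± 0.03 in WT red and −0.03 ± 0.03 in phyB red, neither called, and was lower in phyAB red (−0.21 ± 0.03).

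Plastid transcripts were read last, and with care: the libraries were made from mRNA taken on oligo(dT) beads, and most plastid transcripts carry no long poly(A) tail. Plastid genes together held 0.213% and 0.211% of the reads in WT dark and 0.213% and 0.217% in WT red. They held 0.279% and 0.278% in phyB red and 0.252% and 0.253% in phyAB red. The part of this general shift in the differences of single plastid genes was not tested. psbD, the target of SIG5 at its light-responsive promoter, had 24.7 ± 0.0402 CPM in the dark, 35.5 ± 0.199 after light in wild type, 45.5 ± 0.165 in phyB red and 20.7 ± 0.102 in phyAB red (SD, n = 2). It rose by 0.53 ± 0.07 in WT red (adjusted p = 1.27e-10), was higher in phyB red than in WT red (0.36 ± 0.06) and lower in phyAB red (−0.77 ± 0.07). The order of its groups differed from that of SIG5 in that phyAB red lay below WT dark (−0.25 ± 0.08, adjusted p = 0.00457). psbC, its partner in the same operon, rose by 0.36 ± 0.07 in WT red and was lower in phyAB red (−0.82 ± 0.08).

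Of the 11 plastid target genes 10 were tested, and 2 rose and 4 fell in WT red, with a median of −0.20. The share that rose was near the 24.1% called higher over all genes, of which 22.7% were called lower. Those that fell were rbcL (−1.05 ± 0.10), psbA (−0.66 ± 0.15), psaA (−0.61 ± 0.15) and psbB (−0.38 ± 0.13). In phyB red 7 were higher than in WT red and 0 lower, where 13.1% of all genes were called higher and 14.1% lower. Among the 7 were psbB (0.69 ± 0.12) and atpH (0.67 ± 0.26). The lowest values were those of psaJ (0.12 ± 0.20) and ndhF (0.18 ± 0.14), neither called. In phyAB red 2 were lower, psbC and psbD, and 2 higher, rbcL (0.55 ± 0.11) and psaA (0.37 ± 0.16), shares near the 22.7% called lower and 22.3% called higher over all genes. ndhF, the target of SIG4, stayed at 7.55 to 9.41 CPM in the group means and was called in no comparison, and psbN, the target of SIG3, had under 1 CPM in every group mean and was not tested. The PEP core genes rpoA, rpoB, rpoC1 and rpoC2 were not called in WT red (−0.03 ± 0.05, 0.20 ± 0.14, 0.25 ± 0.21 and 0.19 ± 0.21). In phyB red rpoB (0.91 ± 0.12), rpoC1 (0.70 ± 0.19) and rpoC2 (0.73 ± 0.19) were higher than in WT red and rpoA was not called (−0.02 ± 0.05), and in phyAB red rpoA (0.34 ± 0.05) and rpoB (0.39 ± 0.13) were higher while rpoC1 (0.21 ± 0.20) and rpoC2 (0.23 ± 0.20) were not called.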

How the data were processed

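Messenger RNA of whole seedlings was sequenced in 8 libraries, as the labels' protocols say. The authors deposited, for every transcript model, a read count and an RPKM value (per the file headers). The submitters' processing notes name TAIR10. No source used here names the aligner, the counting tool or the strandedness. The deposited RPKM values equal the counts divided by a model length, whole within 0.01 for 100.0% of 24548 models, and by the library total. They were used to compare levels between genes.

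Counts were tested with edgeR 4.0.16 in R 4.3.3 (TMM scaling, filterByExpr with a minimum count of 10, robust quasi-likelihood fit with 1 coefficient per group over all 8 libraries). Two-sided p-values were adjusted over 20716 genes (Benjamini-Hochberg), with calls at an adjusted p below 0.05. The SE is the log2 change divided by the square root of the F statistic, and a 95% interval spans 1.96 SE on each side. The fit was tested on simulated counts. The 6 contrasts are all pairs of the 4 groups. The alternatives, whose effect the closing section gives, were RLE, upper-quartile and no scaling, no filter, DESeq2 1.42.0, limma 3.58.1 on log2(RPKM + 1), an assumed coefficient of variation of 0.1 on summed libraries with edgeR's exact test, fits of 2 groups, a replicate block, and leaving out each library.

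Squared differences between the libraries of a group were 1.34 to 1.47 times counting noise. A count of 0 allows up to 3 reads, or 0.136 to 0.188 CPM, which covers counting error only. The members and the lists were chosen with earlier results of these data known. Genes were named by rule: the members, PHYA and PHYB, all genes of lists of up to 5, the 2 highest and 2 lowest values of longer lists in the comparisons described, and the 3 genes most like each member that spans at least 1 on the log2 scale. Windows before gene starts and gene positions come from the RefSeq genome and annotation of assembly TAIR10.1 alone, linked by locus; the deposited files hold no coordinates, and the annotated starts may differ from those of the deposited models.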

Additional observations from a re-analysis of the deposited data

Results flagged for a closer look

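SIG1, SIG2, SIG4, SIG5 and SIG6 lay above WT red in both libraries of phyB red and below it in both libraries of phyAB red. These genes were picked for that order, which fixes the sign of phyAB red minus phyB red, so this difference is given as a description and does not test whether each mutant departs from wild type. It was −0.93 for SIG1, −1.16 for SIG2, −1.22 for SIG4, −2.73 for SIG5 and −1.24 for SIG6 on the log2 scale. In phyB red against WT red SIG4 was not called (0.17, adjusted p = 0.297, edgeR quasi-likelihood test), and the calls of SIG1, SIG2 and SIG6 were lost with an assumed coefficient of variation of 0.1 (adjusted p = 0.76, 0.824 and 0.733). Whether the order was present before the light was not tested, since mutants from darkness were not analysed here. How many of all tested genes show the order was not counted.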

How the results depend on the processing

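Of 612 log2 changes of the sigma factor genes recomputed under the alternatives, 603 kept their direction and their side of the threshold. With an assumed coefficient of variation of 0.1 the number of sigma factor genes called went from 4 to 1 in phyB red against WT red and from 4 to 2 in phyAB red against WT dark. All genes called then numbered 3407, 580, 2651, 3876, 4264 and 2838 in WT red against WT dark, phyB red against WT red, phyAB red against WT red, phyAB red against phyB red, phyB red against WT dark and phyAB red against WT dark, against 9689, 5633, 9330, 10392, 11306 and 9978 in the reported fit. This alternative also summed the libraries of a group and used edgeR's exact test, and the cause of the losses was not tested. DESeq2 called 3660 genes in phyB red against WT red. Leaving out 1 library at a time, SIG3 in phyB red against WT red ran from −0.0914 to 0.00111 and SIG4 in phyAB red against WT dark from −0.129 to 0.258, both uncalled throughout and each changing sign in 1 case. With limma on log2(RPKM + 1), 59.5% of the calls in phyB red against WT red and 61.6% in phyAB red against WT red were higher. Deviations of same-numbered libraries correlated at −0.0036 to 0.027. Since libraries of a group differed little beyond counting noise, this cannot tell whether replicate numbers pair the samples. The fit with a replicate block called 9699 genes in WT red against WT dark and changed no call of a sigma factor gene. SIG5 in WT dark (57 and 68 reads) and SIG4 limit the precision.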
